A study of Mus musculus with 12 samples.

Results

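The TRAJ segments of the mouse T cell receptor alpha locus were followed in order along the chromosome in T cells from brain and meninges. Members were the productive TRA contigs (assembled alpha chain sequences that read through in frame) with a TRAJ segment, without TRAJ21, TRAJ26 and TRAJ33. They numbered 5693 of 6482 productive TRA contigs and of 19419 contigs of any kind, came from 5140 cells and used 40 TRAJ segments. Order was taken from the TRAJ number, which is high next to the TRAV genes and low next to the constant gene TRAC.

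CD45+ leukocytes had been sort purified from C57BL/6 mice with the 5xFAD transgenes (5xFADTg) and from mice without them (NonTg), and their T cell receptor chains were sequenced cell by cell. The 5xFAD line expresses mutant human amyloid precursor protein and presenilin 1 from the Thy1 promoter, which drives transgenes mainly in neurons, and deposits amyloid in the brain, a feature of Alzheimer's disease. The brain parenchyma gave 2 NonTg and 2 5xFADTg libraries, and the meninges, the membranes around the brain, gave 1 library of each genotype. The labels used here name no animals, ages or pooling behind a library, so p-values measure at most the spread between libraries, which may be technical. The matching expression samples were not analysed here, and cells were taken as T cells from their receptor chains alone.

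Per library, the contig lists held 15827899 to 26710709 reads, 49997 to 128700 unique molecular identifiers (UMIs, counted molecules) and 386 to 1621 member contigs. Use was counted over clonotypes, each a pair of TRB and TRA CDR3 nucleotide sequences found in 1 or more cells of a library, so that a large clone counted once. CDR3 is the loop at the V-J junction that contacts antigen. Member clonotypes numbered 545 and 405 in NonTg parenchyma 1 and 2, 585 and 702 in 5xFADTg parenchyma 1 and 2, 258 in NonTg meninges and 297 in 5xFADTg meninges, 2792 in all, with 4544 cells. Of these, 364 were expanded, which means 2 or more cells. A segment absent from a library could hold up to 0.427% (5xFADTg parenchyma 2) to 1.16% (NonTg meninges) of its clonotypes, the limit that a count of 0 allows. This limit and the intervals below cover counting error only. Of 7034 barcodes, 21 occurred in more than 1 library, and whether any of these marked the same cell was not tested. Between libraries, 99 member clonotypes were shared, 98 of them between meninges and parenchyma of the same genotype. Libraries of the same genotype are thus not fully independent, yet the tests over libraries treat them as independent. Of 2428 clonotypes of 1 cell, 65 carried the TRA of an expanded clonotype of their library beside another TRB.

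In the thymus, an alpha chain is made by joining a TRAV to a TRAJ segment. The first joins on an allele tend to use TRAV segments at the downstream end of the TRAV array with TRAJ segments at the upstream end of the TRAJ array. Later joins on the same allele delete the earlier one and reach outward on both sides, until the cell is positively selected. Both alleles rearrange, and alpha chains are not silenced on the second allele as strictly as beta chains are, so a mature cell can carry 2 productive TRA. TRAJ18 joined to TRAV11 makes the invariant alpha chain of iNKT cells (invariant natural killer T cells), which recognise lipids presented by CD1d.

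The germline segments below mark the ends and the peaks of use: the first and the last segment found, the most used segment of the upstream middle range, and the 2 most used of all. They are GENCODE M21 sequences (build GRCm38, the assembly also named mm10, plus strand), and capitals mark the bases that lie inside the CDR3 when nothing is trimmed. TRAJ58 lies at chr14:54157280-54157342, TRAJ31 at chr14:54187895-54187951, TRAJ22 at chr14:54197248-54197307, TRAJ18 at chr14:54200777-54200842 and TRAJ2 at chr14:54217836-54217901, each annotated as a TR_J_gene.
TRAJ58: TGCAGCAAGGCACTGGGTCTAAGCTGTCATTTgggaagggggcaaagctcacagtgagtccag
TRAJ31: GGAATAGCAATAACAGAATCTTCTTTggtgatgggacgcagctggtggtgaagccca
TRAJ22: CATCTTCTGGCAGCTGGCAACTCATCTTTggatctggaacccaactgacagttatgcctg
TRAJ18: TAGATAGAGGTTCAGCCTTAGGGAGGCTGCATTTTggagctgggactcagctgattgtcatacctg
TRAJ2: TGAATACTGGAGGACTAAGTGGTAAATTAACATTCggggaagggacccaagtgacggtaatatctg
The capitals differ in length, from 26 bases in TRAJ31 to 35 in TRAJ18 and TRAJ2, and the lower-case part encodes the framework that follows the loop.

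Use was spread over the whole array, and the middle ranges held the largest shares. The 40 segments found reached from TRAJ58 to TRAJ2 over 60.6 kb, and 38 of them occurred in all 6 libraries. Over all libraries, TRAJ61 to TRAJ46 held 18.2% of member clonotypes, TRAJ45 to TRAJ31 30.3%, TRAJ30 to TRAJ16 32.2% and TRAJ15 to TRAJ1 19.2%. These 4 ranges are used below as steps along the array. They hold unlike numbers of segments in use, so their shares are not use per segment. Of the 900 clonotypes of TRAJ30 to TRAJ16, 165 were the TRAV11-TRAJ18 pair of iNKT cells, while TRAJ45 to TRAJ31 had 847 clonotypes. The 10 most used segments held 46.2% of clonotypes, and the median segment had 56.5 clonotypes. The number of a segment and its mean share were nearly unrelated across the 40 segments (Pearson r = -0.0624, Spearman rho = 0.0206, a description over segments of the same libraries).

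**Figure D1:**
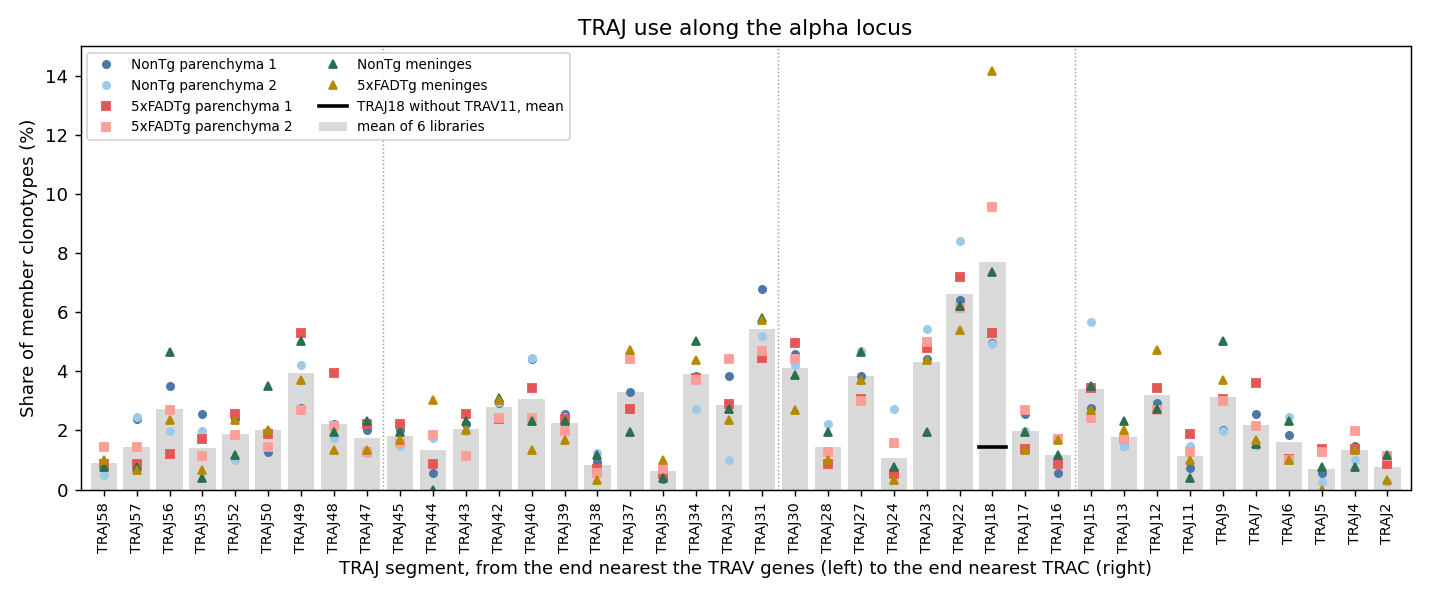
Share of member clonotypes (y axis, percent) of each of 40 TRAJ segments (x axis, ordered from the TRAV end to the TRAC end), with grey bars for the mean of 6 libraries and a point for each library. Dotted lines separate the 4 ranges. TRAJ18 reached 14.1% in 5xFADTg meninges, and the black line marks its mean without TRAV11.

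At the TRAV end, TRAJ49 led with 106 clonotypes, ahead of TRAJ56 with 72 and TRAJ48 with 66. TRAJ49 had 2.75% and 4.20% of clonotypes in NonTg parenchyma 1 and 2, 5.30% and 2.71% in 5xFADTg parenchyma 1 and 2, 5.04% in NonTg meninges and 3.70% in 5xFADTg meninges. Its high libraries thus came from each genotype and tissue. TRAJ58, the first segment found, was the least used of the range with 26 clonotypes and between 0.494% and 1.42% per library.

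In the next range, TRAJ31 led with 149 clonotypes, followed by TRAJ34 with 106 and TRAJ37 with 95. TRAJ31 had 6.79% and 5.19% in NonTg parenchyma 1 and 2, 4.44% and 4.70% in 5xFADTg parenchyma 1 and 2, 5.81% in NonTg meninges and 5.72% in 5xFADTg meninges. It was the only segment of that range above 4% in every library. TRAJ35 was the least used of all segments found, with 17 clonotypes. Its neighbour TRAJ34, less than 1 kb away, had 106.

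The range TRAJ30 to TRAJ16 held the 2 most used segments. TRAJ18 had 206 clonotypes and TRAJ22 had 186, ahead of TRAJ23 with 127. TRAJ22 had 6.42% and 8.40% in NonTg parenchyma 1 and 2, 7.18% and 6.13% in 5xFADTg parenchyma 1 and 2, 6.20% in NonTg meninges and 5.39% in 5xFADTg meninges. It stayed within a narrow span, while TRAJ18 ran from 4.94% to 14.1%. TRAJ24 had the fewest clonotypes of this range, 31, of which NonTg parenchyma 2 alone showed a share above 2% (2.72%).

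At the TRAC end, TRAJ15 led with 92 clonotypes, followed by TRAJ12 with 87 and TRAJ9 with 82. TRAJ15 had 5.68% in NonTg parenchyma 2 and between 2.42% and 3.49% in the other libraries. TRAJ5 and TRAJ2, the last segment found, had 23 clonotypes each, the fewest here.

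GENCODE M21 lists 60 TRAJ entries, of which 51 are TR_J_gene and 9 are pseudogenes. No pseudogene had a member contig. Of 48 TR_J_gene segments not left out, 40 had a clonotype. TRAJ41 and TRAJ25 were found in nonproductive TRA contigs alone (9 and 18 contigs), and TRAJ59, TRAJ46, TRAJ29, TRAJ20, TRAJ19 and TRAJ3 in no TRA contig, productive or not. Whether the submitters' reference held those 6 segments is not given in the sources used here.

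The profile along the array was similar in all libraries. Over the 40 segments, Pearson r of segment shares between 2 libraries was 0.578 to 0.901 (median 0.748 over 15 pairs), and 0.661 to 0.851 without TRAJ18. These are descriptions over segments, which sum to 100% in each library. Mean TRAJ number was 31.1 and 29.96 in NonTg parenchyma 1 and 2, 29.95 and 28.9 in 5xFADTg parenchyma 1 and 2, 30.02 in NonTg meninges and 29.0 in 5xFADTg meninges. The 6 means spanned 28.9 to 31.1, while single clonotypes of a library had an SD of 14.2 to 15.04.

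Genotype was compared in the parenchyma, 2 libraries against 2, where an exact permutation test cannot go below p = 0.333. Mean TRAJ number was 29.4 ± 0.741 (SD, n = 2) in 5xFADTg and 30.5 ± 0.837 (SD, n = 2) in NonTg, a difference of -1.12 (two-sided exact permutation p = 0.333, Benjamini-Hochberg adjusted over 7 position values p = 0.933). Both 5xFADTg means lay below both NonTg means, though the nearest pair was close, at 29.95 and 29.96. This order depended on the setting. Without TRAV11-TRAJ18 the difference was -0.792, and with TRAJ21, TRAJ26 and TRAJ33 included -1.03 (exact permutation p = 0.667 for each, so the groups overlapped). Over cells it was -0.281. The exact permutation p stayed at 0.333 over every distinct alpha chain, with at least 2 UMIs and without clonotypes found in 2 libraries. The upstream range TRAJ61 to TRAJ46 had 18.3% ± 3.12 in 5xFADTg and 18.4% ± 1.97 in NonTg. The downstream range TRAJ15 to TRAJ1 had 20.2% ± 2.16 in 5xFADTg and 18.01% ± 1.07 in NonTg. No position value passed the threshold, an adjusted p under 0.05.

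Single segments were tested on clonotype counts with edgeR's quasi-likelihood test, fitted over all TRAV, TRAJ, TRBV and TRBJ segments together. For genotype, 0 of 118 segments passed an adjusted p of 0.05 (0%), so 0 of the 40 TRAJ members did, while 6 segments, 3 of them TRAJ members, had an unadjusted p under 0.05. DESeq2 called 0, and 0 had an unadjusted p under 0.05. The members with the smallest p were TRAJ57, TRAJ6 and TRAJ40 on the lower side in 5xFADTg and TRAJ5, TRAJ18 and TRAJ9 on the higher side. TRAJ57 had 2.39% and 2.47% in the NonTg and 0.855% and 1.42% in the 5xFADTg parenchyma libraries (log2 fold change -1.05, SE 0.36, edgeR adjusted p = 0.794). TRAJ6 had 1.83% and 2.47% in NonTg and 1.03% and 0.997% in 5xFADTg (log2 fold change -1.06, SE 0.37). TRAJ5 had 0.550% and 0.247% in NonTg and 1.37% and 1.28% in 5xFADTg (log2 fold change 1.59, SE 0.61). The groups did not overlap for these 3, nor for TRAJ40, TRAJ18 and TRAJ9, but that was common: it held for 15 of the 40 members and for 39 of all 118 segments (33.1%), by share of all clonotypes of a library. TRAJ40 gave -0.63, TRAJ18 0.60 and TRAJ9 0.58 on the log2 scale, with edgeR adjusted p of 0.794, 0.885 and 0.885. Without 5xFADTg parenchyma 2, TRAJ18 gave 0.08 and TRAJ40 gave -0.38, and over cells in place of clonotypes TRAJ40 gave -2.05, TRAJ5 2.73, TRAJ57 1.16 and TRAJ9 -0.84. Over the 40 members, 23 fold changes were above 0 and their median was 0.06, against 0.04 over all 118 segments.

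Tissue was compared with 2 meninges libraries, 1 of each genotype, against 4 of parenchyma. The permutation test took no account of genotype or of clonotypes shared between the tissues. Mean TRAJ number was 29.5 ± 0.742 (SD, n = 2) in meninges and 29.99 ± 0.915 (SD, n = 4) in parenchyma, a difference of -0.491 (two-sided exact permutation p = 0.667, adjusted p = 1, smallest possible p 0.0667). The 4 ranges differed by -0.350 to 0.435 percentage points between tissues, with exact permutation p of 0.8 to 1. Each of these differences was smaller than the SD within either tissue. They include the TRAV11-TRAJ18 pair, described below. Without it, the TRAJ30 to TRAJ16 difference was -3.77 (exact permutation p = 0.133, adjusted p = 0.933) and the TRAJ45 to TRAJ31 difference 1.66 (exact permutation p = 0.533, adjusted p = 0.933).

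In the tissue fit, with genotype as covariate, 0 of 120 segments passed (0%), and 7 had an unadjusted p under 0.05 in edgeR, 4 of them TRAJ members. DESeq2 called 0 and had 1 unadjusted p under 0.05. Members nearest the threshold were TRAJ18, TRAJ9 and TRAJ50 on the higher side in meninges and TRAJ53, TRAJ40 and TRAJ57 on the lower side. TRAJ53 had 0.388% and 0.673% in NonTg and 5xFADTg meninges, and 2.57%, 1.98%, 1.71% and 1.14% in NonTg parenchyma 1 and 2 and 5xFADTg parenchyma 1 and 2 (log2 fold change -1.69, SE 0.69, edgeR adjusted p = 0.642). TRAJ9 had 5.04% and 3.70% in the meninges and 2.02%, 1.98%, 3.08% and 2.99% in parenchyma, in the same order (log2 fold change 0.76, SE 0.34, edgeR adjusted p = 0.642). The tissues did not overlap for these members, nor for TRAJ40, TRAJ57 and TRAJ50, which was so for 9 of the 40 members and for 19 of all 120 segments (15.8%). Without NonTg meninges, TRAJ53 gave -1.002 and TRAJ9 0.32 on the log2 scale, and without 5xFADTg meninges TRAJ9 gave 1.32. TRAJ18 gave 0.80, TRAJ50 0.75, TRAJ40 -0.97 and TRAJ57 -1.23 on the log2 scale, with edgeR adjusted p of 0.324, 0.953, 0.642 and 0.953. Of the 40 members, 19 had a fold change above 0, and the median was -0.01 both for them and for all 120 segments.

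**Figure D2:**
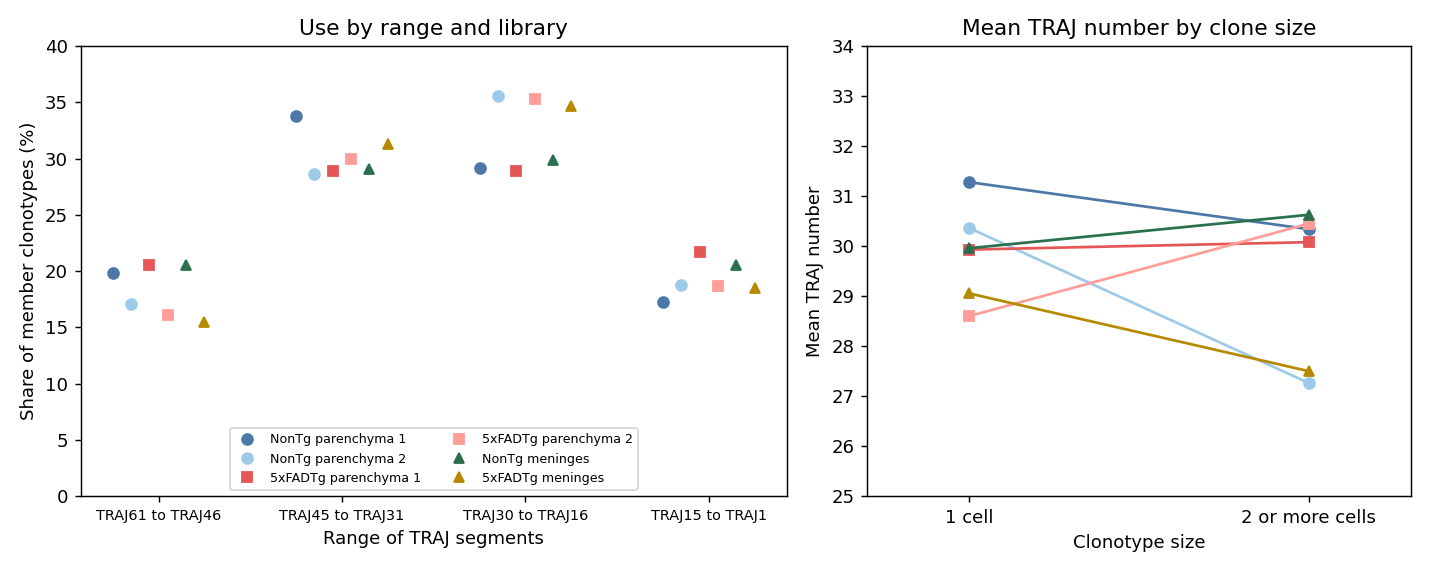
Left, share of member clonotypes (y axis, percent) in 4 ranges of TRAJ segments (x axis), a point for each library. Right, mean TRAJ number (y axis, from 25 to 34) of clonotypes of 1 cell and of 2 or more cells, a line for each library. The lines rise in 3 libraries and fall in 3.

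Clone size was compared within each of the 6 libraries, expanded against 1-cell clonotypes. Mean TRAJ number was 29.4 ± 1.56 (SD, n = 6) in expanded and 29.9 ± 0.9499 (SD, n = 6) in 1-cell clonotypes, higher among expanded ones in 3 of 6 libraries (difference -0.488, two-sided exact sign-flip permutation p = 0.562, adjusted over 7 values p = 0.656). The difference ran from -3.10 in NonTg parenchyma 2 to 1.85 in 5xFADTg parenchyma 2. Among the 4 ranges, TRAJ45 to TRAJ31 differed most, with 35.5% ± 9.27 among expanded and 29.9% ± 2.07 among 1-cell clonotypes (SD, n = 6 each). Its share was higher among expanded clonotypes in 4 of 6 libraries (difference 5.65 percentage points, exact permutation p = 0.25, adjusted p = 0.438). With expansion counted from 3 cells the difference was 8.93 (exact permutation p = 0.03125, the smallest possible, adjusted p = 0.109), and without clonotypes found in 2 libraries it was -3.47. TRAJ61 to TRAJ46 was higher in 2 of 6 (difference -3.80, exact permutation p = 0.219, adjusted p = 0.438). TRAJ15 to TRAJ1 was higher among expanded clonotypes in 5 of 6 libraries (difference 3.43 percentage points, exact permutation p = 0.156, adjusted p = 0.438). TRAJ30 to TRAJ16 was higher in 1 of 6 (difference -5.28, exact permutation p = 0.344, adjusted p = 0.481). In 5xFADTg meninges the expanded group held 16 clonotypes, and without that library the differences over the ranges from TRAJ61 to TRAJ1 were -2.61, 2.83, -1.65 and 1.43. Without TRAV11-TRAJ18, the TRAJ30 to TRAJ16 difference was -0.587.

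Across size classes of all libraries pooled, mean TRAJ number was 29.8 for 2428 clonotypes of 1 cell, 29.9 for 272 of 2 to 4 cells, 29.0 for 47 of 5 to 9 cells and 30.02 for 45 of 10 or more. Under these similar means the ranges differed, as a description of pooled clonotypes: TRAJ45 to TRAJ31 held 30.1%, 28.3%, 40.4% and 42.2% of the classes in that order, and TRAJ30 to TRAJ16 held 32.6%, 31.2%, 29.8% and 20%. The last 2 shares of each rest on 9 to 19 clonotypes. The largest clones used segments from all along the array. In TRAJ61 to TRAJ46 they were a TRAV7-6-TRAJ57 clone of 69 cells and a TRAV9-4-TRAJ56 clone of 28 cells, both in 5xFADTg parenchyma 2, and a TRAV3-4-TRAJ56 clone of 22 cells in NonTg parenchyma 1. In TRAJ45 to TRAJ31 they were a TRAV8N-2-TRAJ40 clone of 94 cells in NonTg parenchyma 2, a TRAV10D-TRAJ42 clone of 85 cells in 5xFADTg parenchyma 2 and a TRAV9-2-TRAJ31 clone of 64 cells in 5xFADTg parenchyma 1. In TRAJ30 to TRAJ16 they were a TRAV6-5-TRAJ30 clone of 66 cells in NonTg parenchyma 2, a TRAV11-TRAJ18 clone of 30 cells in 5xFADTg parenchyma 1 and a TRAV13D-1-TRAJ22 clone of 29 cells in NonTg parenchyma 1. In TRAJ15 to TRAJ1 they were TRAV14D-1-TRAJ11 and TRAV12-2-TRAJ5 clones of 38 and 36 cells in 5xFADTg parenchyma 1 and a TRAV6D-5-TRAJ9 clone of 33 cells in NonTg parenchyma 1. All of these 12 came from parenchyma libraries, which held more cells.

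The expansion fit, with library as block, called 3 of 120 segments (2.5%), and 1 of the 40 TRAJ members was among them, the same share. That member was TRAJ18 (log2 fold change -1.70, SE 0.39, edgeR adjusted p = 0.00161). Its call was lost with DESeq2 (adjusted p = 0.081) and without 5xFADTg parenchyma 2 (edgeR adjusted p = 0.0668), and its fold change lay between -2.05 and -1.53 over the alternatives tried. TRAJ49 and TRAJ17 followed on the lower side (log2 fold change -1.33 and -1.13, edgeR adjusted p = 0.287 and 0.707), and TRAJ22, TRAJ31 and TRAJ12 on the higher side (0.44, 0.44 and 0.58, each with an edgeR adjusted p of 0.707). The median fold change was -0.06 over the members and -0.06 over all segments. The common dispersion of this fit, the spread between libraries that it allows beyond counting error, was 9.77e-05. Its p-values may thus rest more on clonotype counts than on spread between libraries.

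The TRAV segment of a chain and the place of its TRAJ went together. TRAV22 and TRAV23 lie nearest the TRAJ array but had 0 clonotypes. TRAV17 to TRAV21, which come next, had 89 clonotypes with a mean TRAJ number of 47.4, against 29.97 for 2532 clonotypes of the other TRAV segments. TRAV11 was left out of both, since TRAV11-TRAJ18 is 1 fixed pair. The mean for TRAV17 to TRAV21 was 47.6 and 49.3 in NonTg parenchyma 1 and 2, 47.8 and 46.7 in 5xFADTg parenchyma 1 and 2, 48.6 in NonTg meninges and 44.6 in 5xFADTg meninges. The mean for the other TRAV was 30.95, 29.9, 29.8, 29.2, 30.2 and 30.1 in the same libraries. The groups stood far apart in every library. Their difference was 17.4 ± 1.71 (SD, n = 6), higher in 6 of 6 libraries (two-sided exact sign-flip permutation p = 0.03125, the smallest that 6 libraries allow, adjusted over 5 values p = 0.0391). Of the 89 clonotypes, 66.3% used TRAJ61 to TRAJ46, 30.3% TRAJ45 to TRAJ31, 2.25% TRAJ30 to TRAJ16 and 1.12% TRAJ15 to TRAJ1. Of the other clonotypes, 17.8% used TRAJ61 to TRAJ46 and 21.1% TRAJ15 to TRAJ1.

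Among these downstream segments, TRAV19 had the highest mean TRAJ number. Its 35 clonotypes had a mean TRAJ number of 50.5, 80.0% of them in TRAJ61 to TRAJ46 (95% exact Clopper-Pearson interval 63.1% to 91.6%), and its lowest TRAJ number was 31. TRAV17 had 26 clonotypes with a mean of 45.3, TRAV21-DV12 had 27 with a mean of 45.5, and TRAV18 had 1, on TRAJ47. TRAJ61 to TRAJ46 held 57.7% for TRAV17 (interval 36.9% to 76.6%) and 55.6% for TRAV21-DV12 (35.3% to 74.5%). Both intervals overlap that of TRAV19, and a difference between these segments was not tested. The alpha CDR3 of the largest clone of 3 of them is shown to make the junction visible, with capitals for the bases identical to the germline TRAJ.
TRAV17-TRAJ27: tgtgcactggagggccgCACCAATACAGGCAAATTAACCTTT
TRAV19-TRAJ57: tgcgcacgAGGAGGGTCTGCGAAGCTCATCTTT
TRAV21-DV12-TRAJ37: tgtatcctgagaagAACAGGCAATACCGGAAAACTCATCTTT
They came from clones of 18 cells (5xFADTg parenchyma 2), 15 cells (5xFADTg parenchyma 1) and 13 cells (5xFADTg parenchyma 2). TRAJ27 in the TRAV17 clone was the lowest TRAJ number seen with TRAV17.

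TRAV families with members in several places differed less. Of the families with 30 or more clonotypes, TRAV8 (mean TRAJ number 24.0, 106 clonotypes), TRAV3 (27.0, 178 clonotypes) and TRAV4 (28.7, 119 clonotypes) had the lowest means. TRAV19 was highest, followed by TRAV5 (34.8, 104 clonotypes) and TRAV16 (34.5, 151 clonotypes). Library means ran from 22.4 to 32.1 for TRAV8 and from 31.9 to 36.9 for TRAV5, so those of the lowest family and of the next to TRAV19 overlapped.

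The position of the single TRAV segment was then set against the TRAJ number. Within a library, Spearman rho between the position of the TRAV segment and the TRAJ number of a clonotype was 0.540 and 0.445 in NonTg parenchyma 1 and 2, 0.480 and 0.422 in 5xFADTg parenchyma 1 and 2, 0.552 in NonTg meninges and 0.546 in 5xFADTg meninges. It was above 0 in 6 of 6 libraries (mean 0.498 ± 0.0563 SD, n = 6, two-sided exact sign-flip permutation p = 0.03125, adjusted p = 0.0391). The relation was not even along the array. Seen in 7 stretches from the far end towards the TRAJ genes, mean TRAJ number was 25.2 for TRAV1 to TRAV6-2 (102 clonotypes), 23.6 for TRAV7D-2 to TRAV15D-3 (788) and 24.3 for TRAV7N-4 to TRAV15N-3 (393). From there it was 29.0 for TRAV7-2 to TRAV11 (380), 35.7 for TRAV7-5 to TRAV14-2 (454), 43.1 for TRAV15-2-DV6-2 to TRAV12-4 (415) and 47.4 for TRAV17 to TRAV21-DV12 (89). The first 3 stretches, which span most of the 1448 kb from TRAV1 to TRAV21-DV12, were alike, and the means climbed over the last 4. TRAV13-4-DV7, 399 kb before TRAJ58, already had a mean of 51.0 over 21 clonotypes.

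**Figure D3:**
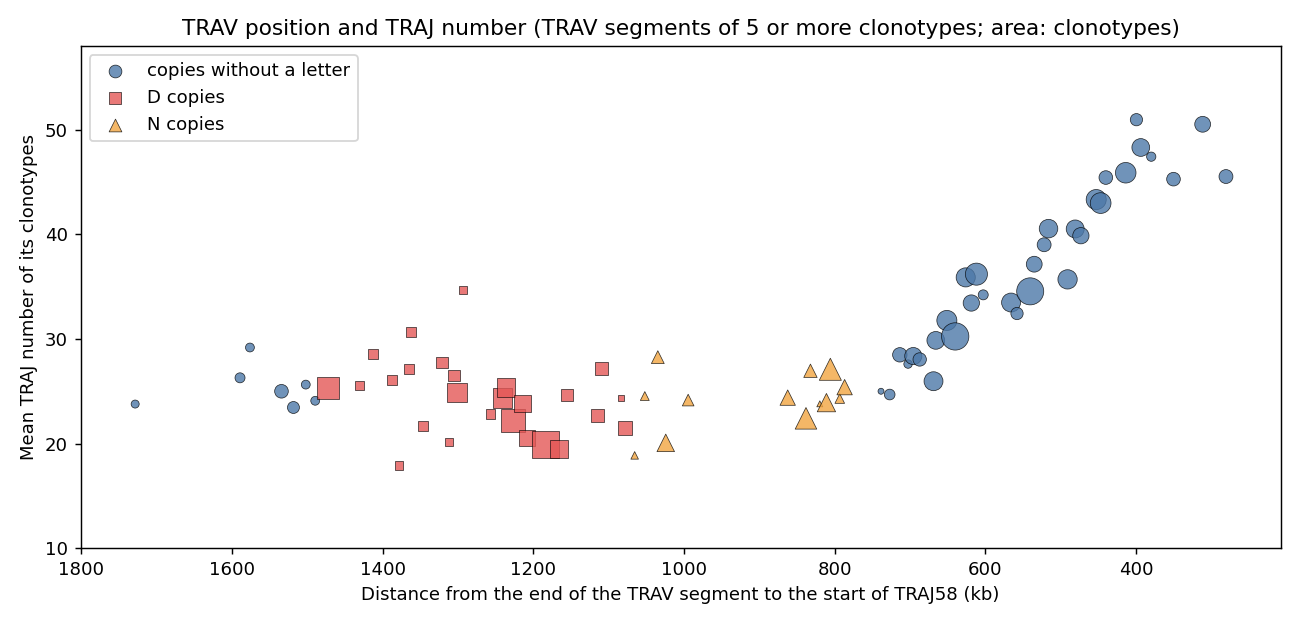
Mean TRAJ number (y axis) of the clonotypes of each TRAV segment with 5 or more clonotypes, against the distance from the segment's end to the start of TRAJ58 (x axis, kb, TRAJ genes to the right), with the area of a symbol for the number of clonotypes. Symbols separate TRAV segments without a letter, at both ends of the array, from the copies named D and N. Means run from 17.9 to 34.7 for D copies and from 18.9 to 28.3 for N copies, and climb among the segments without a letter, to 51.0 for TRAV13-4-DV7 and 50.5 for TRAV19.

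In the C57BL/6 genome, a large block of TRAV genes exists in several near-identical copies, and GENCODE names the copies farther from the TRAJ genes D and N. Mean TRAJ number was 23.6 for 788 clonotypes with D copies, 24.3 for 393 with N copies and 36.1 for 1440 with segments without a letter. The latter are not all copies nearer the TRAJ genes. They include TRAV17 to TRAV21-DV12 (89 clonotypes), which have no D or N copy. TRAV1 to TRAV6-2 (102 clonotypes), which lie beyond the D copies, also have no letter. Some of that far stretch belong to TRAV3, TRAV5, TRAV6 and TRAV7, and count as without a letter in the families below. In 12 families with both kinds, the mean was higher without the letter in 12. In TRAV14, for example, 106 clonotypes without a letter had a mean of 42.9 and 145 D or N clonotypes a mean of 23.4, and in TRAV16 the values were 45.9 (59 clonotypes) and 27.1 (92 clonotypes). Within these families the difference per library was 10.6 to 13.5 (mean 12.02 ± 1.31 SD, n = 6, higher in 6 of 6, two-sided exact sign-flip permutation p = 0.03125, a single comparison added after the data were seen). Spearman rho of position and TRAJ number was 0.527 within the segments without a letter, -0.110 within D and 0.0970 within N, as a description over clonotypes pooled from 6 libraries. Near-identical copies can be confused when reads are assigned, and the size of that error was not tested. Some copies had no clonotype beside a same-numbered copy with many. TRAV3N-3 had 0 and TRAV3D-3 103, and TRAV8-2 had 0 and TRAV8N-2 47. Whether such copies were given 1 name was not tested, so the TRAV position used here and above may be that of another copy.

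Both TRA of a cell lay close together on the TRAJ array. There were 464 cells with 1 TRB and exactly 2 productive TRA, and in 399 of them both TRA were members, which made 274 distinct combinations. The mean distance in one cell, in TRAJ numbers, was 10.0 and 9.45 in NonTg parenchyma 1 and 2, 10.7 and 9.30 in 5xFADTg parenchyma 1 and 2, 8.96 in NonTg meninges and 9 in 5xFADTg meninges. Between TRA of different cells of the same library it was 16.7, 16.2, 16.8, 17.8, 17.4 and 14.8. All distances in one cell were below all distances between cells. The difference was -7.03 ± 1.17 (SD, n = 6), below 0 in 6 of 6 libraries (two-sided exact sign-flip permutation p = 0.03125, adjusted p = 0.0391).

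Over the 274 combinations the median distance was 8 numbers, 93 combinations (33.9%) lay within 5 numbers, 132 (48.2%) fell in the same range and 16 used the same TRAJ. At least 1 chain was in TRAJ61 to TRAJ46 in 63 combinations, and both were in 21 of these. At least 1 was in TRAJ15 to TRAJ1 in 88, and both were in 28 of these. A single combination joined these outer ranges. Spearman rho of both TRAJ numbers was 0.629 (0.637 over 264 combinations without TRAV11-TRAJ18), and that of both TRAV positions was 0.308, each as a description over combinations pooled from 6 libraries. The chain with more UMIs was higher in some libraries and lower in others: its TRAJ number exceeded that of the other chain by 0.478 ± 1.35 (SD, n = 6), and was higher in 3 of 6 libraries (two-sided exact sign-flip permutation p = 0.531). The UMIs were uneven, with a median of 52 for the first chain and 4 for the second. Whether each chain of few UMIs belongs to its cell was not tested. With chains of at least 2 UMIs the distance difference was -6.67.

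**Figure D4:**
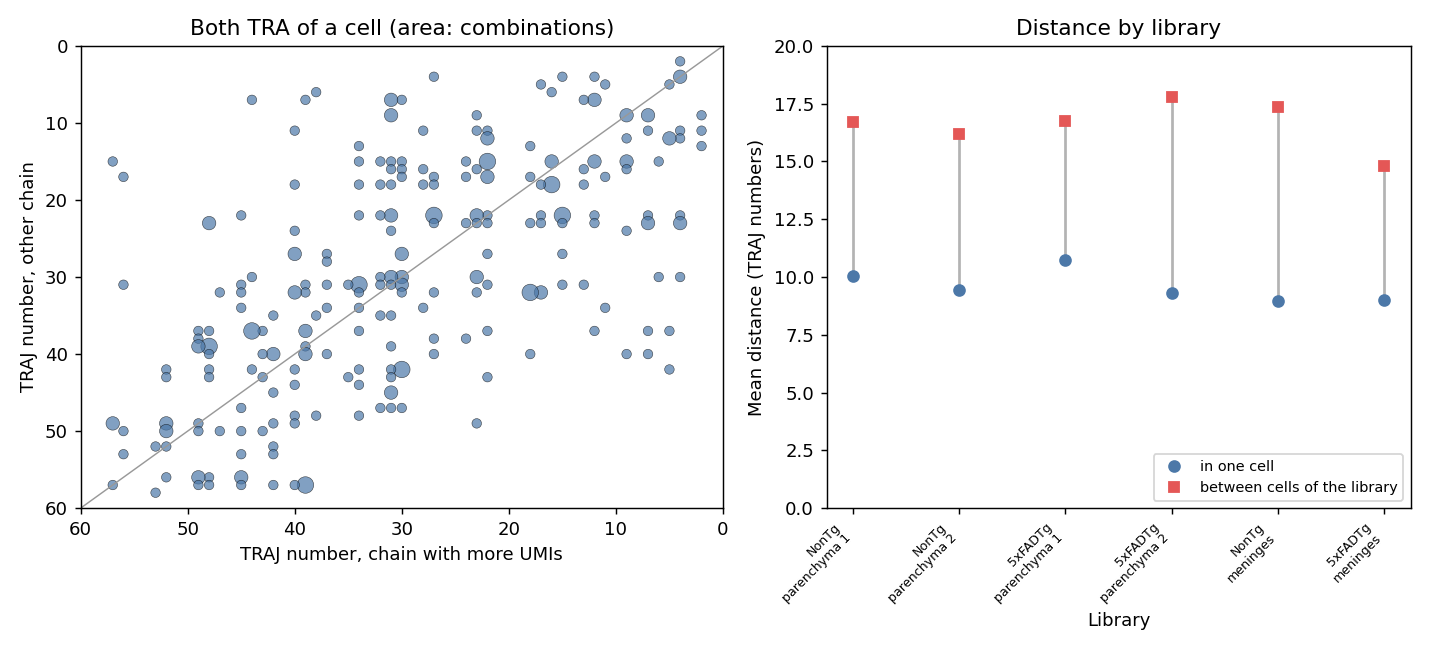
Left, TRAJ numbers of both TRA of a cell, the chain with more UMIs on the x axis and the other on the y axis, with the area of a point for the number of combinations and a line of equal numbers. Right, mean distance (y axis, TRAJ numbers) in one cell and between cells, for each library (x axis). Points crowd along the line, and the distance in one cell is lower in all 6 libraries.

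The combination found in most cells had neighbouring segments and is shown as an example. It was seen in 27 cells of 5xFADTg parenchyma 2 with a TRBV1 beta chain. Capitals again mark bases identical to the germline TRAJ.
TRAV7-5-TRAJ32: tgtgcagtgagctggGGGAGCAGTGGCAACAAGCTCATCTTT
TRAV10-TRAJ31: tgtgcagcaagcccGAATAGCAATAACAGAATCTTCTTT
Cells caught together in 1 droplet can also give 2 TRA, and their part was not tested. Combinations found in 2 or more cells numbered 39 and had a mean distance of 8.26, against 9.98 for 235 found in 1 cell. In 16 combinations that held a TRAV17 to TRAV21 chain, the partner chain had a mean TRAJ number of 35.8 ± 15.6 (SD over chains), against 29.5 ± 14.6 for all 548 chains.

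TRAJ18 was 2 kinds of chain in these libraries. Of its 206 clonotypes, 165 (196 cells) had TRAV11 and 41 (59 cells) had other TRAV segments. With both kinds counted together, TRAJ18 ranked 1 of 40 segments. Without TRAV11 it held 1.56% of 2627 clonotypes and ranked 29 of 40. TRAV11 was otherwise joined to TRAJ17 and TRAJ42 (2 clonotypes each) and to TRAJ34 and TRAJ39 (1 each).

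With TRAV11, TRAJ18 had 2.94% and 3.46% of clonotypes in NonTg parenchyma 1 and 2, 4.62% and 7.69% in 5xFADTg parenchyma 1 and 2, 6.20% in NonTg meninges and 12.8% in 5xFADTg meninges. Without TRAV11, TRAJ18 had 2.02%, 1.48%, 0.684%, 1.85%, 1.16% and 1.35% in the same libraries. The share with TRAV11 was highest in 5xFADTg meninges, while 3 to 13 clonotypes a library stood behind the share without TRAV11. By genotype, the share with TRAV11 was 6.15% ± 2.18 in 5xFADTg and 3.20% ± 0.368 in NonTg parenchyma (SD, n = 2 each, two-sided exact permutation p = 0.333, adjusted p = 0.933). By tissue, it was 9.50% ± 4.66 (SD, n = 2) in meninges and 4.68% ± 2.13 (SD, n = 4) in parenchyma (two-sided exact permutation p = 0.133, adjusted p = 0.933). Neither passed. Without 5xFADTg parenchyma 2 the genotype difference went from 2.96 to 1.42 percentage points, and without 5xFADTg parenchyma 1 it was 4.50. The tissue difference of 4.82 became 1.53 when 5xFADTg meninges was left out and 8.12 when NonTg meninges was. Over distinct alpha chains, where the few sequences of the pair count once each, the differences were -0.0185 by genotype and 1.05 by tissue. Without TRAV11 the shares were 1.27% ± 0.826 and 1.75% ± 0.380 by genotype, and 1.25% ± 0.130 and 1.51% ± 0.594 by tissue, in the same order.

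**Figure D5:**
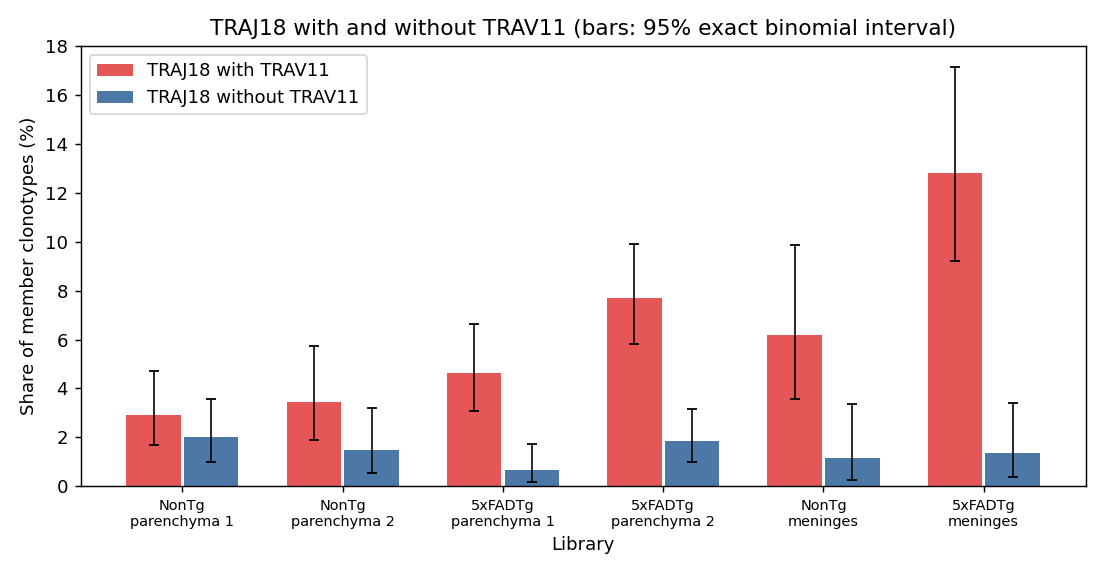
Share of member clonotypes (y axis, percent) that used TRAJ18 with TRAV11 (red) and without (blue) in each library (x axis), with 95% exact binomial intervals. Shares with TRAV11 run from 2.94% to 12.8%, and shares without from 0.684% to 2.02%.

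Expanded clonotypes held fewer TRAV11-TRAJ18 receptors. The share was 0.509% ± 0.801 (SD, n = 6) among expanded and 6.96% ± 3.78 among 1-cell clonotypes, lower among expanded ones in 6 of 6 libraries (difference -6.45 percentage points, two-sided exact sign-flip permutation p = 0.03125, adjusted over 7 values p = 0.219, so it did not pass). That p is the smallest that 6 libraries allow, and it cannot pass the adjustment unless most of the 7 values reach it. With TRAJ18 split by TRAV11, a fit added after the data were seen, the pair was lower in the expanded group (log2 fold change -2.91, SE 0.57, edgeR adjusted p = 2.47e-05), whereas TRAJ18 joined to other TRAV gave 0.07 (SE 0.70, edgeR adjusted p = 0.975). Given the low dispersion of the main expansion fit, these p-values may rest more on clonotype counts than on spread between libraries. The dispersion of the split fit is not given here. In the same split, the pair gave 1.03 (SE 0.25, edgeR adjusted p = 0.0794) in meninges against parenchyma and 0.97 (SE 0.34, edgeR adjusted p = 0.721) in 5xFADTg against NonTg parenchyma. A 1-cell clonotype can carry the TRA of an expanded clonotype of its library beside another TRB: 35 of 162 with TRAV11-TRAJ18 did (21.6%), 3 of 35 with TRAJ18 and another TRAV (8.57%) and 30 of 2266 other than TRAV11-TRAJ18 (1.32%). The part of such shared chains in the difference was not tested. Counted over all libraries, 3 of 165 clonotypes with TRAV11 were expanded (1.82%, 95% exact Clopper-Pearson interval 0.377% to 5.22%), against 6 of 41 without (14.6%, 5.57% to 29.2%) and 13.0% of all member clonotypes. The difference between the kinds was itself tested over libraries and did not pass: the expanded share was lower with TRAV11 in 3 of 6 libraries, 1 was higher and 2 had no expanded TRAJ18 clonotype (mean difference -15.5 percentage points, SD 26.4, two-sided exact sign-flip permutation p = 0.25). In NonTg meninges that difference rested on 3 clonotypes without TRAV11.

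The junctions of these kinds differed. All 165 clonotypes with TRAV11 had an alpha CDR3 of 15 residues, made from 8 nucleotide sequences, and had lost a mean of 1.90 germline bases from TRAJ18. The 41 others had 33 nucleotide sequences of 13 to 18 residues and had lost a mean of 4.76 bases. They used 23 TRAV segments, of which TRAV9-1 had 9 clonotypes. The alpha CDR3 of the largest TRAV9-1 clone was in 5 clonotypes, so these 9 are not 9 separate joins. The 3 most frequent TRAV11-TRAJ18 sequences were found in 69, 46 and 21 clonotypes, each in all 6 libraries, and are shown above the largest clone without TRAV11, with capitals for bases identical to germline TRAJ18.
TRAV11-TRAJ18, 69 clonotypes: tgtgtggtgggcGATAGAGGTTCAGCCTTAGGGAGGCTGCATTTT
TRAV11-TRAJ18, 46 clonotypes: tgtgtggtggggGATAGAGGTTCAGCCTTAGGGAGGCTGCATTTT
TRAV11-TRAJ18, 21 clonotypes: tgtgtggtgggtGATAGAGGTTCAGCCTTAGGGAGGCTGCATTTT
TRAV9-1-TRAJ18: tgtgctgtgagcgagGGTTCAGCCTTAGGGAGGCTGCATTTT
The 3 invariant sequences share all 33 TRAJ18 bases and differ in 1 base before them. In the TRAV9-1 clone 27 bases of TRAJ18 remained. It was found in 2 libraries, with 10 cells in the first NonTg parenchyma library and 5 in the NonTg meninges. In that parenchyma library, 11 cells with a TRBV19 beta chain held this TRA beside a second productive TRA, TRAV13-1-TRAJ32.

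The length of the loop followed the germline segment. Over the 40 segments, the germline bases inside the CDR3 and the mean CDR3 length had a Pearson r of 0.928 (Spearman rho 0.916, a description over segments). The CDR3 contains these bases, less those trimmed, so a high r was largely built in. Mean alpha CDR3 length was 42.4 nucleotides in TRAJ61 to TRAJ46, 40.6 in TRAJ45 to TRAJ31, 42.2 in TRAJ30 to TRAJ16 and 40.2 in TRAJ15 to TRAJ1. The mean germline part was 30.8, 29.6, 30.7 and 28.6 bases in that order, so the order of the ranges was the same. Length differences between ranges therefore contain the germline ones, and are not a separate result. CDR3 was longer in TRAJ61 to TRAJ46 than in TRAJ15 to TRAJ1 in 6 of 6 libraries, by 2.29, 1.64, 2.29 and 1.96 nucleotides in NonTg parenchyma 1 and 2 and 5xFADTg parenchyma 1 and 2, 1.81 in NonTg meninges and 3.73 in 5xFADTg meninges (mean 2.29 ± 0.752 SD, n = 6, two-sided exact sign-flip permutation p = 0.03125, adjusted p = 0.0391). Trimming of the TRAJ end was 2.87, 3.32, 2.48 and 2.46 bases over the ranges, and 14.5, 14.2, 13.98 and 14.1 bases stood before the TRAJ part. Over segments, TRAJ number had a Pearson r of 0.252 with trimming and of 0.194 with the bases before the TRAJ part.

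The number of TRA molecules was compared between the same ends of the array. Mean log2 TRA UMIs differed by 0.0223 ± 0.437 (SD, n = 6) between TRAJ61 to TRAJ46 and TRAJ15 to TRAJ1 (two-sided exact sign-flip permutation p = 0.969, adjusted p = 0.969). The difference was 0.01 to 0.31 in 5 libraries and -0.84 in 5xFADTg meninges.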

How the data were processed

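Receptor chains of sorted cells were sequenced by Chromium Single Cell Immune Profiling v2, per the labels' protocols. Cell Ranger 6.0 and mm10 are named in the submitters' processing notes, and no source used here gives further filters. The authors' deposited contig lists give V and J genes, CDR3, productive status and raw counts of reads and UMIs, per the file headers. Cells were kept when their productive contigs held a single TRB and 1 or more TRA, and a clonotype was the TRB and the TRA with most UMIs. Cells with 2 or more TRB, which can be doublets, were left out, and no doublet caller was run. Germline order and sequence came from GENCODE M21 (GRCm38). The trimmed bases were read by matching each CDR3 to the germline TRAJ, in 2791 of 2792 clonotypes.

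Group means were compared with exact permutation tests over libraries, and values within a library with exact sign-flip tests over 6 libraries, adjusted (Benjamini-Hochberg) over 7 position values or 5 structure values (2 for the TRAV link, 1 for both TRA of a cell, 2 for features). Segment counts (at least 10 clonotypes, D and N copies collapsed, all clonotypes as library size) were tested with edgeR 4.0.16 (limma 3.58.1, R 4.3.3), and standard errors were the log2 fold change over the root of F. The scripts were tested on simulated data. Other steps ran in Python 3.11.15 (scipy 1.17.1, pandas 2.3.3, matplotlib 3.10.9, numpy 2.4.6). DESeq2 1.42.0 was an alternative. The members, lists and tests were chosen with earlier results of these data known.

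Named were the 3 most and the least used TRAJ of each range, TRAJ18, the first and last segment, every TRAJ past the threshold and the 3 of smallest p each way per comparison, the 3 highest and lowest TRAV families of 30 or more clonotypes and TRAV17 to TRAV21, and the 3 largest clonotypes per range. TRAV13-4-DV7, TRAV14 and TRAV16 copies were named after their values were seen.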

Additional observations from a re-analysis of the deposited data

Results flagged for a closer look

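In 4 values over 6 libraries, 1 library stood farther from the others than Dixon's 95% critical value allows. In all, 12 such values were examined, and chance singles out about 1 in 20.

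The difference in TRA CDR3 length between TRAJ61 to TRAJ46 and TRAJ15 to TRAJ1 was 3.73 nucleotides in 5xFADTg meninges and 1.64 to 2.29 in the others. The difference in log2 TRA UMIs between the same ranges was -0.84 in 5xFADTg meninges and 0.01 to 0.31 in the others. The expanded minus 1-cell share of TRAV11-TRAJ18 was -13.5 percentage points in 5xFADTg meninges and -7.09 to -3.44 in the others. For TRAJ18 without TRAV11 it was 7.91 points in NonTg meninges and -1.70 to 0.565 in the others, and the expanded group of that library held 24 clonotypes.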

How the results depend on the processing

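With all 6 libraries kept, the TRAV link, the distance of both TRA of a cell and the CDR3 length difference stayed at an adjusted exact permutation p of 0.0391 under every alternative run. That value rests on the smallest sign-flip p, so it cannot show a change of size. Over all alternatives the TRAV17 to TRAV21 difference was 11.9 to 18.9, rho 0.461 to 0.536 and the distance difference -7.28 to -4.93. Among these alternatives are rank in place of TRAJ number, which is another unit, and, for the TRAV link, D and N copies left out. Leaving out a library leaves 5, where 0.0625 is the smallest sign-flip p, so none could pass: the TRAV17 to TRAV21 difference was then 17.0 to 17.99, rho 0.487 to 0.513, the distance difference -7.28 to -6.73, the CDR3 length difference 1.998 to 2.41 and the log2 UMI difference -0.0356 to 0.196. No position value passed in any setting. For genotype and tissue none could, since the smallest exact permutation p with all libraries is 0.333 and 0.0667. For expansion, the smallest sign-flip p of 0.03125 passes only if most of the 7 values reach it. These failures therefore do not show that a difference is absent. Values that turned sign are given here in percentage points of clonotypes, or TRAJ numbers for the mean. For genotype, the TRAJ61 to TRAJ46 difference was 4.09 points over cells, 0.440 without TRAV11-TRAJ18 and 0.00156 without clonotypes found in 2 libraries, TRAJ18 with TRAV11 was -0.0185 over every distinct alpha chain, and TRAJ30 to TRAJ16 was 0.174 with at least 2 UMIs. For tissue, TRAJ18 without TRAV11 was 0.692 over cells. Over every distinct alpha chain, TRAJ61 to TRAJ46, TRAJ45 to TRAJ31 and TRAJ30 to TRAJ16 were 0.0261, 0.845 and -2.9998. With at least 2 UMIs the last pair was 0.343 and -0.416, and with TRAJ21, TRAJ26 and TRAJ33 included TRAJ30 to TRAJ16 was -0.153. Without TRAV11-TRAJ18, the mean was 0.133 and the first 3 ranges 0.579, 1.66 and -3.77. For expansion without clonotypes found in 2 libraries, TRAJ45 to TRAJ31 was -3.47, TRAJ18 without TRAV11 -0.973 and TRAJ15 to TRAJ1 12.98. That last value was 0.455 with expansion from 3 cells, and TRAJ30 to TRAJ16 was -0.313 with TRAJ21, TRAJ26 and TRAJ33 included. Leaving out each library in turn, genotype differences ran from -2.33 to 2.09 (TRAJ61 to TRAJ46), -4.36 to 0.760 (TRAJ45 to TRAJ31), -3.48 to 2.96 (TRAJ30 to TRAJ16) and -1.07 to 0.102 (TRAJ18 without TRAV11). Tissue differences ran from -1.02 to 0.0334 (mean), -2.88 to 2.18, -1.23 to 1.04, -2.39 to 2.44 and -0.577 to 1.45 (the ranges in order), and expansion differences from -0.955 to 0.0341 (mean) and -0.693 to 1.23 (TRAJ18 without TRAV11). Over cells, where large clones count fully, the genotype fit called 1 segment, no TRAJ, and TRAJ57 and TRAJ9 turned to 1.16 and -0.84 on the log2 scale. The expansion fit called 6 segments with TMM factors, 1 with DESeq2 and 1 to 3 with a library left out. The causes were not tested.

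With the replicate number as a block (replicate block), the genotype fit called 0 segments, as without it, with 7 at an unadjusted p under 0.05. Same-numbered libraries deviated together with a correlation of 0.0815 over 120 segments, from 2 pairs, and share only a number. Depth limits most the meninges, with 24 and 16 expanded clonotypes.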

Other observations

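Outside the productive chains, a nonproductive TRA beside the productive one gave a further view of the same array. In 913 cells with 1 productive member TRA and 1 nonproductive TRA (633 distinct combinations), the TRAJ distance in one cell was 7.56 to 8.70 numbers over the 6 libraries, and between cells of a library it was 14.7 to 17.4. The difference was -8.10 ± 1.18 (SD, n = 6), below 0 in 6 of 6 libraries (two-sided exact sign-flip permutation p = 0.03125, a comparison added after the data were seen). Spearman rho of both TRAJ numbers was 0.718 over the combinations, as a description. The nonproductive TRA exceeded the productive TRA by 1.53 ± 1.36 TRAJ numbers (SD, n = 6), was lower in 1 of 6 libraries (exact permutation p = 0.0938), and had a median of 60 UMIs against 4 for the productive TRA. Whether each productive chain of few UMIs belongs to its cell was not tested.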
